A study of Caenorhabditis elegans with 2 samples.

Results

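Small nucleolar RNA (snoRNA) genes of C. elegans were examined for binding of EFL-1. All 346 genes annotated as snoRNA on the nuclear chromosomes were taken, out of 46890 annotated nuclear genes, and 103 of them (29.8%, 95% interval 25 to 34.9) had an EFL-1 peak summit within 200 bp. These 103 genes are called marked. The study is a chromatin immunoprecipitation sequencing experiment with an antibody against EFL-1 in wild-type N2 worms. It holds 1 group, whole hermaphrodite larvae of the first larval stage (L1) kept at 26 °C, with 2 biological replicates. There is no mutant, no other stage and no other temperature, and the control library was not analysed here. Whole larvae mix all tissues, so the cells in which a site was bound cannot be told apart. The peaks are the authors' set of 4835 peaks selected by the irreproducible discovery rate (IDR), which compares how peaks rank in replicates. The peak lists hold no read counts, and the sequencing depth is therefore unknown. Intervals are exact binomial 95% intervals and cover counting error only.

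SnoRNAs guide the chemical modification of ribosomal RNA. Those of the C/D class direct 2′-O-methylation and those of the H/ACA class direct pseudouridylation, each in a particle with its own set of proteins. Many snoRNA genes lie in introns of protein-coding genes and can be released from the spliced intron of the host, whereas others are transcribed from a promoter of their own. EFL-1 resembles mammalian E2F4 and E2F5 and belongs to the DREAM complex, which represses cell cycle genes.

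The stretches of DNA just before many of the marked genes held short recurring letters, and examples are printed first. Each line gives 100 bases before the annotated 5′ end and the first 10 bases of the gene, on the strand of the gene, from the RefSeq sequence of assembly WBcel235 (ce11). Capitals mark the letters of an element. The first element has 2 parts, AACNCG, then 5 bases of any kind, then TGTC, and is called the paired element. Shown are 5 high-scoring genes that hold it. They are not the 5 highest: F59C6.15 (838.6) and Y37E3.20 (714.8) also hold it and are not shown.
Y53F4B.47 (chrII:15025884-15025993, minus strand): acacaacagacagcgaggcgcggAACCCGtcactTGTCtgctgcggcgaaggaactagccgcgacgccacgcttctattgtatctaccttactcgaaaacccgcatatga
Y55F3BR.9 (chrIV:867124-867233, minus strand): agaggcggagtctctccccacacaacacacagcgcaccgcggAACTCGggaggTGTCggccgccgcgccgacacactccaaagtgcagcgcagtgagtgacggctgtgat
ZK994.7 (chrV:8500479-8500588, plus strand): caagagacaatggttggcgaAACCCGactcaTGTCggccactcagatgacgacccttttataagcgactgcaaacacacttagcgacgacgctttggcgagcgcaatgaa
F01D5.12 (chrII:14018432-14018541, minus strand): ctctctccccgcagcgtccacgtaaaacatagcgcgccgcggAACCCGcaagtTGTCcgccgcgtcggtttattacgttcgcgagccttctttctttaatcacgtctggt
smy-2 (chrIV:9511457-9511566, minus strand): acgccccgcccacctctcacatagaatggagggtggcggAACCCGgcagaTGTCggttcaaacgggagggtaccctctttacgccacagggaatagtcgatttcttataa

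A different set of marked genes held letters that resemble the internal promoter of tRNA genes, which RNA polymerase III reads through a box A and a box B. Box A letters were spelled TGGCNNANT and box B letters GTTCNANNC. Shown are 5 high-scoring genes that hold both, with each box in capitals.
Y38F2AR.14 (chrIV:2408626-2408735, minus strand): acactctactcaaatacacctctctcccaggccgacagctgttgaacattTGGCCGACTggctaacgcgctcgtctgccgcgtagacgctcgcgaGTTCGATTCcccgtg
C04G6.12 (chrII:5105222-5105331, minus strand): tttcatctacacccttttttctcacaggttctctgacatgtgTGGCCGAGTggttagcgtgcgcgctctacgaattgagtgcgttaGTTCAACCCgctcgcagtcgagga
T24H7.6 (chrII:6248617-6248726, plus strand): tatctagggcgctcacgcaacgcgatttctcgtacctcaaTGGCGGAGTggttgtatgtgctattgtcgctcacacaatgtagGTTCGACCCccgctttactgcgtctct
F12F6.11 (chrIV:11549855-11549964, minus strand): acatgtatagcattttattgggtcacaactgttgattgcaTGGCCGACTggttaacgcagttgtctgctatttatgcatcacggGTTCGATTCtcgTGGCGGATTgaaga
C05D2.15 (chrIII:5602170-5602279, minus strand): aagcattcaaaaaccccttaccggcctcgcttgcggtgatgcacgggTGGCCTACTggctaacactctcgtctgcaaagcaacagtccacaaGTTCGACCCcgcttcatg

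The next 2 genes had high-scoring peaks but no exact match to these letters on the gene strand. Y53F4B.48 does hold near matches to box A (tggcctgct) and to box B (gttcgtgcc).
M7.15 (chrIV:11083047-11083156, plus strand): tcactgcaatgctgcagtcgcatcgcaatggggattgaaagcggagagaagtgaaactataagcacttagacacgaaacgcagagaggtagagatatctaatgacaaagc
Y53F4B.48 (chrII:15166019-15166128, minus strand): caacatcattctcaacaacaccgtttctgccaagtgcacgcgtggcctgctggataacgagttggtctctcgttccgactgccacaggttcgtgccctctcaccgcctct
The last 2 held the paired element and had no peak, not even in the relaxed list called on pooled reads.
C02C6.13 (chrX:15552478-15552587, minus strand): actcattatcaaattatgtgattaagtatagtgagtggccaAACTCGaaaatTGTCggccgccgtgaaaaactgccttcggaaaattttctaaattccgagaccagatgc
K02F6.11 (chrII:2556789-2556898, minus strand): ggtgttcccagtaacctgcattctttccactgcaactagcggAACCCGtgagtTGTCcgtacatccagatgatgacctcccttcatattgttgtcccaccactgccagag
In all 7 sequences with the paired element its first base lay from −80 to −58, counted from the 5′ end. The spellings were chosen after these sequences were seen, so the shares given for them are descriptions.

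Marking was more frequent at snoRNA genes than over the annotation as a whole, and close to that of other short structural RNA genes. Of all 46544 other annotated genes, 8.79% had a summit within 200 bp. The share was 36.9% for tRNA genes and 24% for the small nuclear RNA (snRNA) genes of the spliceosome. It was 14.6% for the 19973 protein-coding genes, 10.1% for the 7764 genes annotated as ncRNA and 4.21% for microRNA genes. The 8.79% also covers many genes of classes not listed here, and it lies below most of the listed shares. Only 1.92% of nuclear bases lay within 200 bp of a summit. Gene lengths differ between these classes and set how large a target each presents, so the shares are given side by side without a test. The 103 marked genes were served by 103 summits, which were 2.13% of the IDR set. A single summit marked 2 genes, C51F7.4 and C51F7.3, which lie next to each other on chromosome V, and 1 gene had 2 summits. No marked gene shared its summit with a tRNA or snRNA gene within 200 bp.

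**Figure D1:**
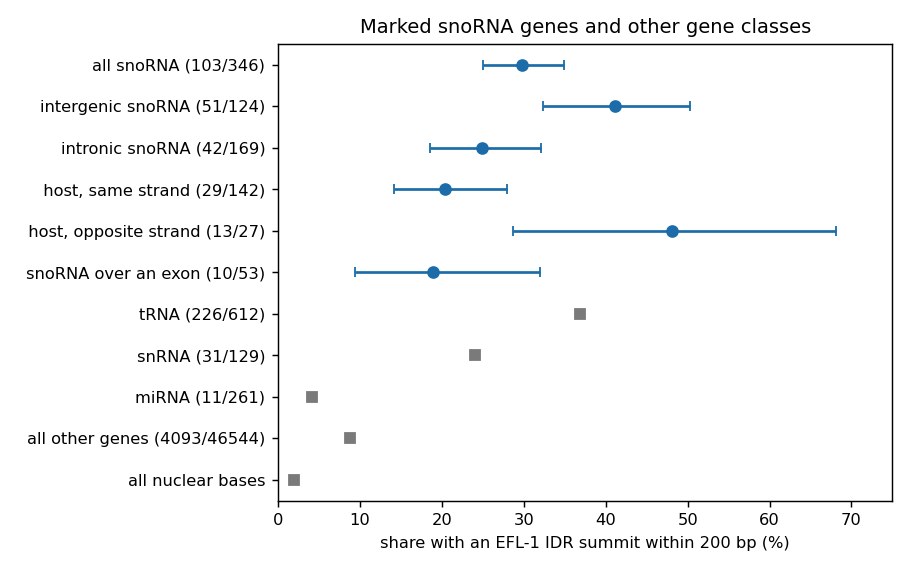
Share of genes with an EFL-1 summit of the IDR set within 200 bp (x axis, %), by gene class. Circles are snoRNA genes with exact 95% intervals and squares are other classes. Intergenic snoRNA genes stood at 41.1%, intronic ones at 24.9% and all other genes at 8.79%.

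Both intergenic and intronic snoRNA genes were marked. Of the 124 intergenic genes, which touch no protein-coding gene, 51 were marked (41.1%, interval 32.4 to 50.3). Of the 169 genes lying wholly in introns, 42 were marked (24.9%, 18.5 to 32.1). Of the 53 genes that overlap an exon of a protein-coding gene, 10 were marked (18.9%, 9.44 to 32). For scale, 1.19% of intron bases and 3.32% of bases outside protein-coding genes lay within 200 bp of a summit.

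Among intronic genes, a bound host start was more frequent for the unmarked ones than for the marked ones. A start was called bound when a summit lay from 500 bp upstream to 200 bp downstream of it, the promoter window, and 15.2% of protein-coding genes had one. The start is the outermost annotated start of the gene, and starts of other transcripts inside it were not used. Of the 42 marked intronic genes, 8 (19%, 8.6 to 34.1) had a bound host start, against 62 of the 127 unmarked ones (48.8%, 39.9 to 57.8). The share for marked genes was thus near the 15.2% of all protein-coding genes, and the share for unmarked ones lay above it. The unmarked ones include 19 genes in ribosomal protein hosts, 17 of them with a bound host start. A host counts once for each snoRNA gene it holds. Of the 36 genes in hosts with several snoRNA genes 35 were unmarked, so repeated hosts fall mostly on that side. The intervals treat such repeats as separate. Read the other way, 8 of 70 snoRNA genes in bound hosts were marked (11.4%, 5.07 to 21.3) and 34 of 99 in unbound hosts (34.3%, 25.1 to 44.6). Among genes on the strand of their host the counts were 6 of 62 and 23 of 80. The marked genes also lay farther from the host start, at a median of 2766 bp against 1408 bp, and in introns with a median length of 359 bp against 496 bp. What part distance has in the difference was not tested.

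The orientation of the host and its kind varied with marking as well. Intronic genes on the strand opposite to the host, which cannot be released from its transcript, were marked in 13 of 27 cases (48.1%, 28.7 to 68.1). Those on the host's strand were marked in 29 of 142 cases (20.4%, 14.1 to 28). None of the 19 snoRNA genes in introns of ribosomal protein genes was marked, which allows a share of up to 17.6%, although the host start was bound for 17 of them. These hosts include rpl-6 with 3 snoRNA genes and rps-12, rps-29, rpl-7A and rpl-15 with 2 each, and none of the 19 genes held the paired element or box letters on the gene strand, though Y24D9A.10 in rpl-7A held box A letters on the other strand. In other hosts 42 of 150 were marked (28%, 21 to 35.9). The 36 genes in hosts that hold several snoRNA genes included 1 marked gene, in pdl-1. The 42 marked intronic genes lay in 42 different hosts. Among these hosts are mix-1, encoding a condensin subunit, the peroxidasin gene pxn-1, the pyruvate kinase gene pyk-1 and unc-70, which encodes β-spectrin. The grouping by ribosomal protein host was made after the hosts had been seen.

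Most marked snoRNA genes had no outermost start of a protein-coding gene near their summit. Of the 103 genes, 20 (19.4%, 12.3 to 28.4) had a summit in a promoter window, whereas 49.7% of all IDR summits lay in one. These were 14 of 51 intergenic genes, 4 of 10 genes overlapping an exon and 2 of 42 intronic genes. For such a summit the 2 starts cannot be told apart as its target. Leaving them aside, 83 genes (24% of 346, 19.6 to 28.8) were marked by a summit outside every promoter window, among them 40 intronic and 37 intergenic genes. The next shares count all summits again, those in promoter windows included. Intergenic genes within 1000 bp of a protein-coding gene were marked in 40 of 76 cases (52.6%, 40.8 to 64.2) and those farther away in 11 of 48 (22.9%, 12 to 37.3). The 14 intergenic genes with a summit in a promoter window fall in the nearer class by definition, so they add to this difference.

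The summits lay just upstream of the snoRNA genes. The distance rule is the same on both sides of a gene and does not favour either. Of the 103 marked genes, 94 had their highest summit upstream of the annotated 5′ end (91.3%, 84.1 to 95.9), 4 had it inside the gene and 5 downstream. The summit lay within 100 bp upstream at 84 genes. The median position was 52 bp upstream over all genes, written as −52. It was −52.5 for intronic genes (quartiles −65.5 and −35) and −51 for intergenic ones (quartiles −68 and −30). The 10 genes overlapping an exon had a median of −49 (quartiles −91.75 and −43.25), and 8 of them had the summit upstream, against 41 of 42 intronic and 45 of 51 intergenic genes. The ranges of the 3 classes overlapped, as the plot of summit positions shows.

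**Figure D2:**
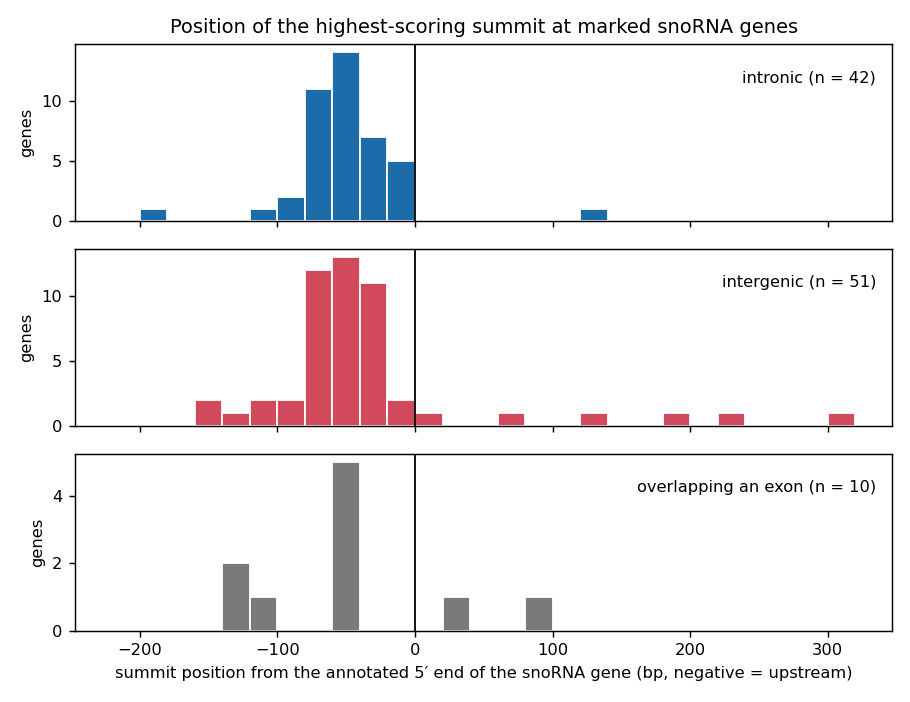
Number of marked snoRNA genes (y axis) by position of the highest-scoring summit from the annotated 5′ end (x axis, bp, in steps of 20 bp, negative upstream), for the 3 gene classes. The vertical line is the 5′ end. The summits gather around medians of −52.5, −51 and −49 bp.

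The summits of each replicate were taken within 100 bp of the IDR summit, so their place follows in part from that matching. Of the 103 matched summits, 91 lay upstream in replicate 1 and 95 in replicate 2. The median for intronic genes was −45 in replicate 1 and −54 in replicate 2, and for intergenic genes −56 and −58. At tRNA genes the IDR summits had a median of −12.5 (226 genes) and at snRNA genes of −37 (31 genes). Intronic genes on the host's strand had a median of −54, with all 29 summits between −114 and −14. Those on the opposite strand had a median of −52 (13 genes). The 11 marked intergenic genes far from protein-coding genes were more scattered, from −101 to 303 with a median of −19.

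The printed elements were counted from 120 bp before to 20 bp after the annotated 5′ end, on the strand of the gene. Their spellings were chosen after upstream sequences of marked genes were seen, which raises the shares at marked genes. The paired element was found at 24 of 103 marked genes (23.3%) and at 11 of 243 unmarked ones (4.53%). At snRNA genes it was found in 30 of 129 (23.3%), and in 15 of the 31 snRNA genes with a summit. Of 19973 protein-coding starts, 0.0751% held it in the same window. Box A letters were found at 23.3% of marked and 4.53% of unmarked snoRNA genes, against 2.35% of protein-coding starts. Box B letters were found at 29.1% and 3.29%, against 2.04% of protein-coding starts. Any of these letters occurred at 65 marked genes (63.1%) and 26 unmarked ones (10.7%), against 4.42% of protein-coding starts. On either strand these shares were 66%, 14.8% and 8.27%. No snRNA gene held box A letters on its strand, but 14 of 129 (10.9%) held box B letters, namely 3.23% of those with a summit and 13.3% of those without. Of the 612 tRNA genes, 27.1% held box A letters and 1.47% box B letters in this window. The window ends 20 bp after the 5′ end, so boxes farther inside a tRNA gene were not counted.

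**Figure D3:**
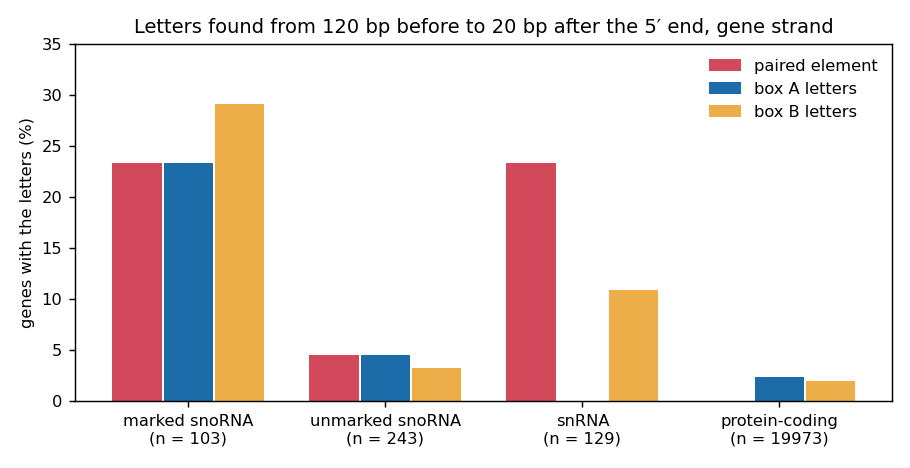
Share of genes (y axis, %) with the paired element, box A letters or box B letters from 120 bp before to 20 bp after the 5′ end on the gene strand, in 4 gene sets. Marked snoRNA genes stood at 23.3%, 23.3% and 29.1%, and unmarked ones at 4.53%, 4.53% and 3.29%.

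Sorted by these letters, the snoRNA genes differed widely in how many were marked. The letters were chosen after upstream sequences of marked genes were seen, and only exact spellings counted. The shares below are therefore descriptions, and their intervals do not cover that choice. Of the 35 genes with the paired element 24 were marked (68.6%, 50.7 to 83.1). Of the 56 genes with box letters and no paired element 41 were marked (73.2%, 59.7 to 84.2). Of the 255 genes with neither, 38 were marked (14.9%, 10.8 to 19.9). The paired element and box letters met in only 2 genes of 346. The shares were alike in introns and between genes: 13 of 18 intronic and 11 of 17 intergenic genes with the paired element were marked, and 19 of 27 and 17 of 21 with box letters. Without any of the letters, 10 of 124 intronic genes (8.06%) and 23 of 86 intergenic genes (26.7%) were marked. Among the 42 marked intronic genes 32 held one of the elements.

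The paired element lay in a narrow stretch before the gene, and the boxes were more spread. The first base of the paired element lay at a median of −58 in marked genes, with all 24 between −80 and −54, and at −59 in the 11 unmarked ones. Box A letters began at a median of −58 in marked genes (quartiles −60.5 and −53, range −117 to −4) and at −71 in unmarked ones (range −104 to −50). Box B letters began at a median of −14 in marked genes (quartiles −18.5 and −12, range −70 to −5) and at −12 in unmarked ones (range −68 to −5). Both boxes occurred in 15 genes, of which 13 were marked (86.7%, 59.5 to 98.3), again a description given how the letters were chosen. In those 13 the first bases of box A and box B were 43 to 45 bp apart, and in the other 2 genes 44 and 45 bp. The summits lay upstream of the gene in all 24 marked genes with the paired element (median −35) and in all 41 with box letters (median −56). Of the 38 marked genes with neither, 29 had an upstream summit (median −53, but reaching 303).

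**Figure D4:**
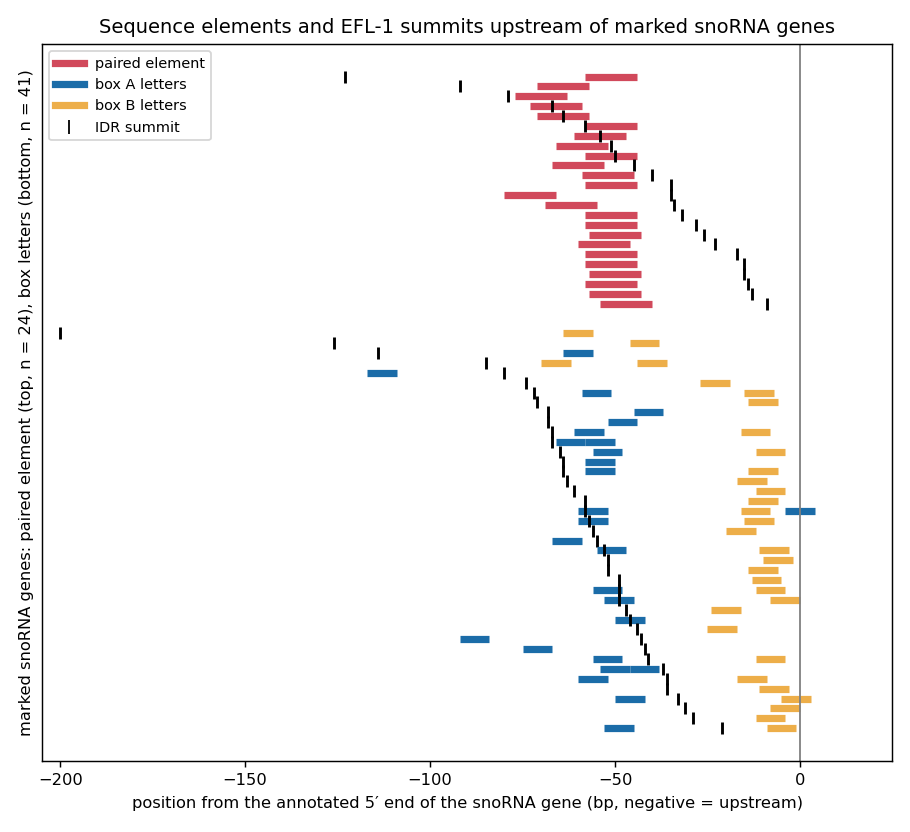
Position of sequence elements (coloured bars) and of the highest-scoring summit (black ticks) relative to the annotated 5′ end (x axis, bp, negative upstream) in each marked snoRNA gene with the paired element (top, 24 genes) or box letters (bottom, 41 genes), ordered by summit position. Bars are drawn to scale; the paired element starts at a median of −58.

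The peak scores are the authors' own values on a scale that is not stated, and they rank peaks within a list. Marked genes ran from 61.1 to 1920.3 with a median of 261, against a median of 179.8 for the IDR set, and 72 of 103 stood above that median. Their best rank was 279 of 4835. IDR peaks in promoter windows had a median of 293 and those outside 128.4, while the marked snoRNA genes outside promoter windows had 249.3. The median was 363.6 with the paired element, 262.6 with box letters and 187.9 with neither. Intronic genes had a median of 277.1 and intergenic genes 243.6. The peaks had a median width of 241 bp against 360 bp over the IDR set, and the upper quartile was 360 bp in both. Several of the weakest marked peaks were exactly 360 bp wide. What part the score has in the difference in width was not tested.

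The highest score belonged to Y53F4B.47 (chrII:15025814-15025893), an intergenic gene whose sequence is the first printed. It scored 787.3 in replicate 1, 1128 in replicate 2 and 1920.3 in the IDR set. Its summit, 79 bp upstream, also lay in the promoter window of cmtr-1, which encodes a cap methyltransferase. F09G2.14 (chrV:7196237-7196580) followed with 483.7, 919.9 and 1394, from a summit 80 bp upstream and in the window of F09G2.2. F39B2.14, on chromosome I, overlaps an exon, and its summit lay in the window of the ribosomal protein gene rps-26 and of tmem-107, with scores of 443.5, 716.9 and 1168. The 3 highest values therefore all came from summits that a protein-coding start shares. M7.15 (chrIV:11083147-11083243), with 281.8, 560.7 and 843.1, was the highest outside promoter windows, and its summit lay 88 bp upstream. F59C6.15 on chromosome I came next with 338.9, 516.1 and 838.6 and held the paired element. C36E8.11 (668.4) shared the window of tif-1A, which encodes an initiation factor of RNA polymerase I. F25H2.15 (572.6), Y75B12B.12 (556.6, in the window of Y75B12B.11) and Y53F4B.48 (549.8, in the window of the glutathione S-transferase gene gst-27) complete the intergenic genes among the 12 highest.

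The 5 highest intronic genes were deep inside their hosts. Y37E3.20 lies in the last of 7 introns of pcyt-2.1 on chromosome I and scored 336.5 in replicate 1, 364.6 in replicate 2 and 714.8 in the IDR set. Y55F3BR.9 (chrIV:867056-867133) lies in intron 16 of 22 of Y55F3BR.2 on the opposite strand, with 244.5, 368.0 and 614.3. ZK994.7 (chrV:8500579-8500645) lies in intron 17 of 21 of pxn-1, with 289.7, 324.5 and 593.9. F01D5.12 (chrII:14018354-14018441) lies in intron 6 of 7 of F01D5.10, with 218.7, 318.4 and 546.0. These 4 all held the paired element, their summits lay 32 to 50 bp upstream, and no host start was bound. M106.6 (chrII:10840317-10840391), in intron 13 of 14 of mix-1, held box B letters instead, and the start of mix-1 was bound. It scored 191.8, 317.8 and 505.8. Among genes overlapping an exon, T23G11.12 (526.6), C51F7.4 (396.7), T27A3.9 (339.8) and C02F5.15 (315.9) followed F39B2.14.

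Every marked gene had a summit in both relaxed replicate lists, which hold 28817 peaks for replicate 1 and 30000 for replicate 2. Of all 4835 IDR peaks, 4718 were matched in both lists. Marked genes ranked as low as 5877 in replicate 1 and 6364 in replicate 2. All 103 summits had a match within 100 bp in each replicate list, and the matched summits of the replicates were a median of 12 bp apart and at most 89 bp. Scores ran from 18.3 to 787 in replicate 1 (median 92.06) and from 26.4 to 1128 in replicate 2 (median 166.1). The log2 ratio of replicate 2 to replicate 1 had a median of 0.80 with an SD of 0.41, against 0.96 with an SD of 0.542 over 4718 IDR peaks matched in both. The IDR set was called on reads of both replicates, so a match in each follows in part from the selection. The gene leaning most to replicate 1 was ZK484.11, with 61.51 and 29.06 (log2 ratio −1.08), whose summit lay 59 bp beyond the gene in the window of the antizyme gene oaz-1. T28B8.11 (−0.50) was the other gene with a higher score in replicate 1, and F32E10.10 (0.07) came next. At the other end stood F37A8.7 (1.65, with 34.15 and 107.5), T08B6.64 (1.58) and Y57G11C.1145 (1.55).

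**Figure D5:**
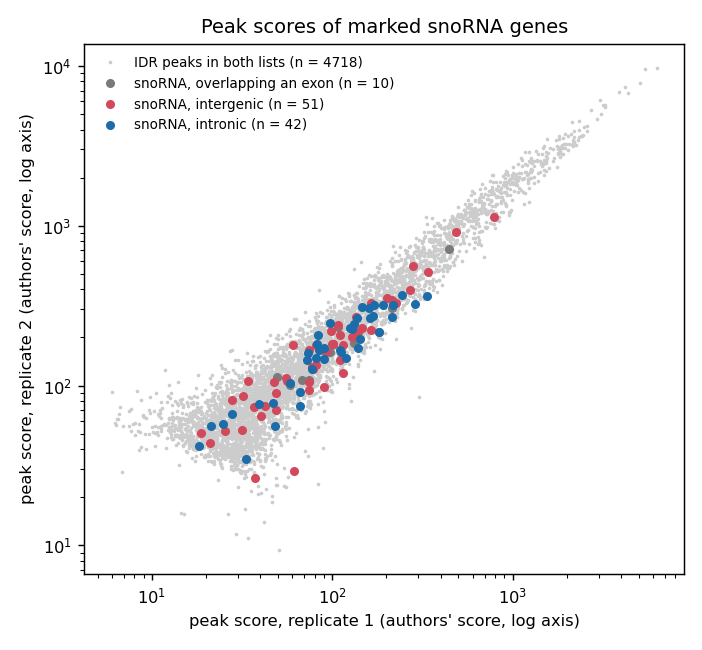
Peak score in replicate 2 (y axis, log scale) against replicate 1 (x axis, log scale), as scored by the authors. Grey points are 4718 IDR peaks matched in both lists and coloured points are the 103 marked snoRNA genes by class, which lie within the grey cloud and have a median log2 ratio of 0.80.

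The weakest marked genes and those near the distance limit looked different. The lowest scores were at R10A10.3 (61.07), R07G3.16 (61.99) and T28B8.11 (67.11). R10A10.3 also stood at the limit itself, 200 bp from its summit, followed inside it by F37A8.7 (152 bp) and F30A10.16 (146 bp). Just outside stood W06H8.17 (218 bp), F54E7.10 (250 bp, in an intron of rps-12) and K02F3.15 (252 bp). Between 152 and 218 bp only R10A10.3 was found, so few calls turn on the exact limit. Of the 243 unmarked genes, 84 (34.6%, 28.6 to 40.9) had a summit within 200 bp in the relaxed pooled list, with a median score of 18.94 and a highest score of 55.2. That list holds 30000 peaks, and its share over all genes was not computed. The 34.6% therefore has no background to be read against. The relaxed summits of these 84 genes lay upstream less often than the summits of marked genes (91.3%). They were upstream at 39 of 84 (46.4%, 35.5 to 57.6), and the median position was 5.5. The distance rule covers the gene itself as well as 200 bp on each side. The stretch upstream of the 5′ end is therefore the smaller part of it, and an even split is not the value to compare with. The highest relaxed scores were at K11D9.10 (55.22), Y6B3B.15 (54.9) and W06A7.12 (49.56).

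The X chromosome held few marked genes. Only 2 of its 33 snoRNA genes were marked (6.06%, 0.743 to 20.2), C53B7.8 and D2021.6, both intergenic with a summit 29 bp upstream. On the autosomes 101 of 313 were marked (32.3%, 27.1 to 37.8), from 20.4% on chromosome III to 38.2% on chromosome V. Of all other genes, 6.55% were marked on X and 9.13% on the autosomes. Marked snoRNA genes were also shorter, with a median length of 116 bp against 133 bp.

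The E2F consensus was found at a similar share of summits beside these genes and of other EFL-1 summits. It was searched as TTNNCGC with each N being C or G, on both strands, within 100 bp of a summit. It occurred at 14 of the 103 summits (13.6%, 7.63 to 21.8) and at 17.6% of the other 4732 IDR summits (16.5 to 18.7). Outside promoter windows the shares were 12% of 83 and 15.4% of 2351. The cell cycle genes homology region, TTNGAA with N being C or T, is the letters bound by the DREAM subunit LIN-54. It occurred at 26.2% of the snoRNA summits (18 to 35.8) and at 45.2% of the others (43.8 to 46.6). Leaving out summits in promoter windows, the shares were closer, at 24.1% (15.4 to 34.7) and 37.8% (35.8 to 39.8). The letters of the homology region can overlap those of box B. Within 100 bp of all these summits the paired element occurred at 25.2% against 0.909%, box A letters at 27.2% against 10.1% and box B letters at 30.1% against 7.78%. A match in letters is not a binding site, and the absence of one says nothing about the factor.

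Genes for the proteins of snoRNA particles, for snoRNA transcription and for other nucleolar proteins were mostly bound at their own starts. A list of 31 entries was used, of which 27 matched a protein-coding gene and 4 did not (snpc-1.4, snpc-1.5, nol-1 and nol-5). It was fixed with earlier results of these data known, so its share is a description. A summit lay in the promoter window of 20 of the 27 (74.1%, 53.7 to 88.9), against 15.2% of all protein-coding genes. All 4 C/D core protein genes were bound: fib-1, the methyltransferase fibrillarin (score 1297), nol-56 (1167), nol-58 (4605) and snu-13 (608.5). The introns of nol-56 hold 4 snoRNA genes, K07C5.10, K07C5.11, K07C5.12 and K07C5.18, and none of these was marked. Of the H/ACA core, dkc-1, the pseudouridine synthase dyskerin (597.2), garr-1 (308.1) and Y48A6B.3 (6809.7) were bound and nola-3 was not, with a relaxed score of 20.54.

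The remaining genes of the list act in assembly, processing and transcription or encode other nucleolar proteins. The ATPase genes ruvb-1 (236.8) and ruvb-2 (1408), the cap hypermethylase gene tgs-1 (204.5) and the exonuclease gene xrn-2 (83.1) were bound. Y48A5A.1, listed as shq-1, was not. The snRNA activating complex SNAPc binds a sequence element before snRNA genes. Of its 7 genes matched here, snpc-1.1 (439.9), snpc-1.2 (163.6), snpc-3.4 (1026) and snpc-4 (433.8) were bound, and snpc-1.3, snpc-3.1 and snpc-3.2 were not. The RNA polymerase III subunit gene rpc-1 (531.9) was bound and rpc-2 was not. Of the nucleolar genes dao-5 (1594), nol-6 (1547), nol-10 (590.4) and nol-14 (307.5) were bound, and nol-9 was not.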

How the data were processed

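Relaxed peak lists, 1 per replicate, a relaxed list called on pooled reads and an IDR-selected set were deposited by the authors on ce10 and ce11. The ce11 lists were used. The peak score is the authors' own, deposited with no stated scale. The −log10 q column, deposited by the authors, was not used for ranking. Aligner, peak caller and tool versions were not given in the sources used here.

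Genes came from Ensembl release 115 and sequence from RefSeq, both of WBcel235 (ce11). A gene was marked by any IDR summit within 200 bp of it. An intronic gene lies wholly inside an intron of a protein-coding gene, and the highest-scoring summit gives a gene its values. Promoter windows run from 500 bp upstream to 200 bp downstream of the outermost annotated start of each protein-coding gene. Starts of other transcripts inside a gene were not used. Replicate summits were matched within 100 bp. Values were computed with Python 3.11.15, NumPy 2.4.6 and SciPy 1.17.1, and the steps were tested on simulated data. No test between conditions was possible, so shares are given with exact intervals and with the same share over all genes.

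The members, the lists and the tests were chosen with earlier results of these data known. The genes named are the 12 with the highest scores, the 5 highest of each class, the 3 lowest, those on either side of the distance limit, the extremes of the replicate ratio, the unmarked genes with the highest relaxed scores and every matched gene of the protein list. Genes of chromosome X, genes printed for their upstream sequence and host genes were also named, after their values were seen. The element spellings were chosen after the sequences were seen, and 1 other spelling each of box A and of the paired element was tried. A sort into C/D and H/ACA genes by their letters was tried and not used, because it left most genes without a class.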

Additional observations from a re-analysis of the deposited data

How the results depend on the processing

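Of 88 alternative values, 72 stayed within the tolerance and 16 passed it. Only the median positions have a direction that could reverse, and none of them did. Counts and shares have no such direction. The tolerance was 1.5 times for counts, the 95% interval for the E2F share and the SD between the replicates' medians for positions, which for intergenic genes is so narrow that shifts of a few bases pass it. Adding all summits of the relaxed pooled list raised the marked genes to 187, the intronic ones to 90 and those outside promoter windows to 159. Restricting the IDR set to its 2417 highest peaks left 33 marked intergenic genes and 4 marked intronic genes with a bound host start. Only 11 marked intergenic genes were over 1000 bp from every protein-coding gene. Genes with a summit in a promoter window numbered 35 at a distance of 500 bp and 34 with a window of 1000 bp upstream and 500 bp downstream. At 500 bp, 2 marked genes also lay near a tRNA or snRNA gene. The intergenic median position was −47 at 100 bp and −53 at 500 bp. The E2F share fell to 6.8% within 50 bp of the summit. The causes were not tested.

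Taking the top peaks of 1 replicate in place of the IDR set gave 100 and 104 marked genes, 41 and 43 intronic, 49 and 50 intergenic, 18 and 20 in promoter windows and 82 and 84 outside. The medians became −59 and −55 for intergenic and −54 and −46 for intronic genes. Bound genes of the protein list numbered 20 and 21. Genes with the paired element numbered 24 and those with box letters 41 both ways, and bound hosts of marked intronic genes 7 and 10. The alternatives for elements and host starts were added after the data were seen, and an earlier spelling of box A gave 24 marked and 7 unmarked genes. The other spelling of the paired element, CG, 5 bases and TGTCGG, gave 19 and 8 against 24 and 11. No paired analysis was possible because the series holds 1 group. Depth is unknown, so a gene without a peak is not shown to be unbound.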

Other observations

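The letters of the paired element occurred 1900 times in the nuclear genome, mostly with no peak nearby, and 71 of these (3.74%, exact 95% interval 2.93 to 4.69) lay within 100 bp of a summit of the IDR set. Upstream of snoRNA genes 24 of 35 did (68.6%, 50.7 to 83.1), and upstream of snRNA genes 12 of 28 (42.9%, 24.5 to 62.8). Of the 1837 occurrences elsewhere 35 did (1.91%, 1.33 to 2.64). Of all nuclear bases, 0.969% lay within 100 bp of such a summit. The spelling was chosen on the upstream sequences of marked snoRNA genes, so their share is a description.

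Of the 11 unmarked snoRNA genes with the paired element, 4 had a summit in the relaxed pooled list, and of the 15 unmarked genes with box letters 7 did. Of the 217 unmarked genes with neither, 73 did (33.6%, 27.4 to 40.3). The share of all genes near a summit of that list was not computed. Of the 19 snoRNA genes in introns of ribosomal protein genes, 9 had a relaxed summit within 200 bp.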
